A study of Rattus norvegicus with 6 samples.

Results

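The genes described here make cholesterol, fatty acids and triglycerides in the liver. Of 45 members, 22 belong to the sterol arm and 23 to the fatty acid and triglyceride arm, called the fatty acid arm below. Members were found by the RefSeq transcript of each non-control probe, and the probe with the highest mean signal represented its gene. A probe was matched to 43 of the 45 members, all 22 of the sterol arm and 21 of the fatty acid arm, and all 43 passed the filter on dim probes and were tested among 27642 genes. Srebf1, the lipogenic member of the SREBP factors, and Pnpla3, a lipid droplet protein, matched no probe and were not analysed here.

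Cholesterol is built from acetyl-CoA through mevalonate, isoprenoids, squalene and lanosterol. When sterol in the endoplasmic reticulum runs low, the factor SREBP-2 is released from its membrane and turns on nearly every gene of this route together, while INSIG proteins hold it back when sterol is ample. Fatty acids are built from the same acetyl-CoA by carboxylation and repeated condensation, then elongated, desaturated and esterified to triglyceride, a route driven in liver by insulin through SREBP-1c and by sugar through ChREBP. Both routes are known to follow feeding and the time of day.

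Liver RNA came from 3 male Sprague-Dawley rats dosed at 400 mg/kg/day with TCEP, which is tris(2-chloroethyl) phosphate, an organophosphate used as a flame retardant, and from 3 male rats of the same stock given corn oil. All had been bought at 5 weeks of age and were kept on a basal diet. Dosing lasted 9 weeks by the treatment protocol but 28 days by the design text. Each animal had 1 Agilent 1-colour array. Feeding state and hour of collection are given in no source used here.

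Values are log2 of the processed signal minus the 75th percentile of the same array (the scaled log2 signal), so a value of 0 is a probe as bright as that percentile. Of 61657 non-control probes, 57.2% (corn oil 2) to 64.4% (TCEP 1) were well above background, and every member's probe was so on all 6 arrays. The markers of hepatocytes were measured in 9 of 9, and 3 of 6 adipocyte and 2 of 5 pancreatic markers were tested. The adipocyte genes Adipoq and Lep and the pancreatic genes Prss1, Cpa1 and Pnlip were not well above background on any array. The TCEP arrays all lay on slide 3, and corn oil arrays 1 and 3 lay on slide 1 and corn oil array 2, scanned 23 days after the others, on slide 2. Treatment and slide cannot be told apart. Precision was set by the number of animals, and a log2 difference had a standard error of 0.145 at the median gene.

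No member passed the test of TCEP against corn oil, and neither did any other gene. In limma, with Benjamini-Hochberg adjustment over all genes, the share of genes at an adjusted p under 0.05 was 0%, with a smallest adjusted p of 0.291; 9.2% of genes had an unadjusted p under 0.05. Of the 43 members, 3 had an unadjusted p under 0.05, or 6.98%, a share below that background. They were Stard4, Elovl2 and Elovl5, all with higher TCEP means, and the count was 1, Stard4, without TCEP 3. The groups did not overlap in Stard4 and Elovl5, or 2 of 43 members, against 17.4% of all genes. In bulk tissue fewer cells of a type and less RNA per cell cannot be told apart.

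The sterol arm as a whole lay close to the corn oil level. The TCEP mean was higher in 15 of its 22 members, against 50.9% of all genes, and the median log2 difference was 0.05, with a range of -0.38 to 0.55. Over all genes the median was 0.00. The count of 15 was 8 without TCEP 2 and 6 without corn oil 3, and the median was then -0.11 and -0.07. In the fatty acid arm 11 of 21 members had a higher TCEP mean, with a median of 0.00 and a range of -0.39 to 0.52. The 95% confidence interval of the difference, taken gene by gene, stayed within a 2-fold change either way for 18 of 22 sterol members and 18 of 21 fatty acid members, together 83.7% against 87.5% of all genes. For those 36 members the arrays thus bounded the difference, while for Sqle, Idi1, Insig1, Tm7sf2, Fasn, Scd and Lpin1 they did not exclude a 2-fold change.

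**Figure D1:**
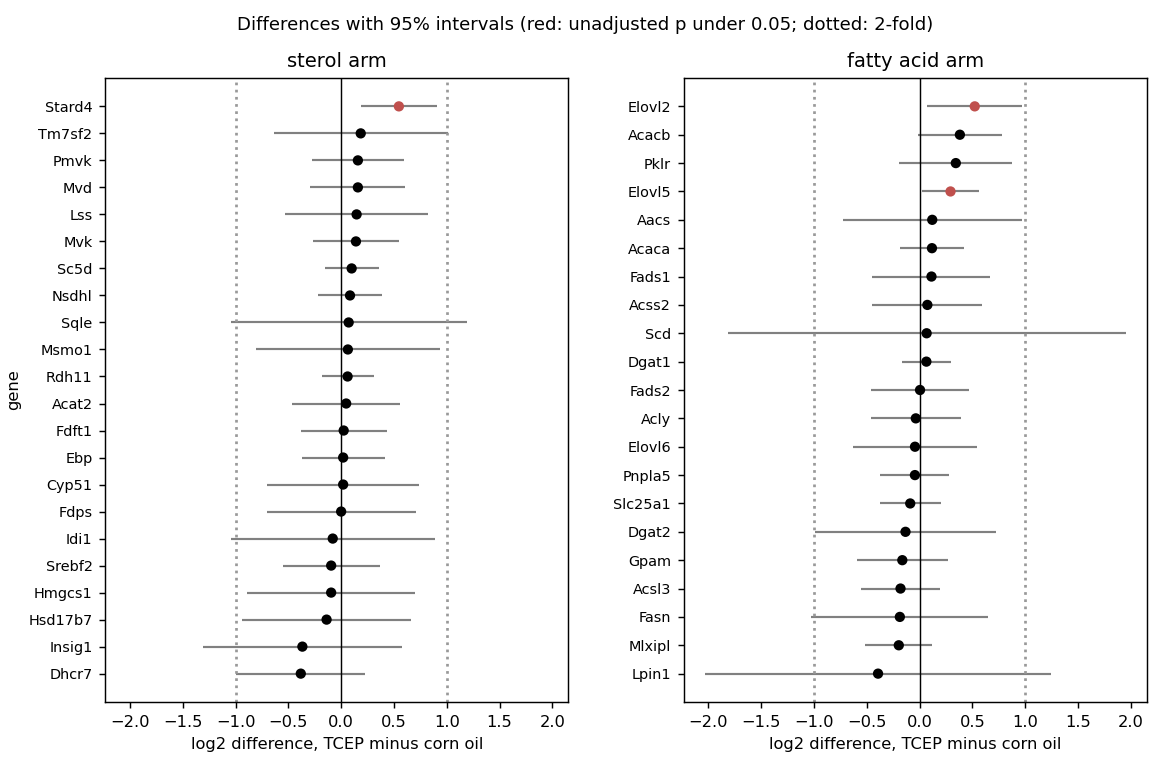
Log2 difference of TCEP minus corn oil (horizontal axis) for each of 22 sterol and 21 fatty acid members, with 95% confidence intervals from limma (3 animals per group). Red points had an unadjusted p under 0.05 (Stard4, Elovl2, Elovl5), none passed adjustment, and the dotted lines mark a 2-fold change.

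Among the 7 mevalonate pathway members (Acat2, Hmgcs1, Mvk, Pmvk, Mvd, Idi1 and Fdps), 4 had a higher TCEP mean, with differences of -0.09 to 0.16. Hmgcs1, the synthase that makes HMG-CoA, had scaled log2 signals of 6.53, 7.53 and 7.12 in the TCEP livers and 7.67, 7.01 and 6.78 in the corn oil livers. TCEP 1 was the lowest of all 6 and corn oil 1 the highest, and the groups overlapped, with a log2 difference of -0.09 ± 0.33 (SE). Idi1, the isomerase that interconverts the isoprenoid units, had 1.73, 2.85 and 2.24 in TCEP livers and 2.90, 2.49 and 1.67 in corn oil livers. Its lowest and highest values both stood among the corn oil animals. Fdps, which joins those units to farnesyl diphosphate, had a difference of 0.00 ± 0.29 (SE). Pmvk, the phosphomevalonate kinase, had 1.92, 2.18 and 1.89 in TCEP livers against 2.18, 1.78 and 1.57 in corn oil livers. TCEP 2 and corn oil 1 were level, and the difference was 0.16 ± 0.18 (SE). The kinase Mvk and the decarboxylase Mvd, which act before and after it, differed by 0.14 and 0.16, and the thiolase Acat2 by 0.05.

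Of the 11 members that lead from farnesyl diphosphate through squalene to cholesterol (Fdft1, Sqle, Lss, Cyp51, Tm7sf2, Msmo1, Nsdhl, Hsd17b7, Ebp, Sc5d and Dhcr7), 9 had a higher TCEP mean, with a median difference of 0.06 and none at an unadjusted p under 0.05. Sqle, the squalene epoxidase and a controlled step of the route, had 1.05, 2.80 and 2.00 in TCEP livers and 2.24, 2.00 and 1.39 in corn oil livers. TCEP 1 and TCEP 2 were the lowest and highest of all 6 animals, 3.37-fold apart, while the difference between the groups was 0.07 ± 0.46 (SE). Msmo1, which starts removal of the methyl groups of the sterol ring, had 4.14, 5.28 and 4.89 in TCEP livers and 5.23, 4.62 and 4.28 in corn oil livers. Here too the span lay within the TCEP animals, and the groups overlapped throughout. Tm7sf2, a sterol reductase, had 4.67, 5.50 and 5.74 in TCEP livers and 5.06, 5.58 and 4.71 in corn oil livers, a difference of 0.19 ± 0.34 (SE).

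In a further pair of reductases the TCEP mean was the lower one. Dhcr7, which makes cholesterol from its immediate precursor, had 2.10, 2.87 and 2.29 in TCEP livers and 3.13, 2.49 and 2.78 in corn oil livers. TCEP 1 and TCEP 3 lay below all corn oil animals but TCEP 2 did not, and the difference was -0.38 ± 0.25 (SE, unadjusted p = 0.177 in limma). Hsd17b7, a keto-sterol reductase, had -0.24, 0.20 and -0.29 in TCEP livers and 0.60, 0.15 and -0.66 in corn oil livers. The corn oil animals spanned all TCEP values, 2.39-fold from lowest to highest. The other members of this group, the synthase Fdft1, the cyclase Lss, the demethylase Cyp51, the dehydrogenase Nsdhl, the isomerase Ebp and the desaturase Sc5d, differed by 0.02 to 0.15. Their second, dimmer probes, where kept, departed from this range, at 0.35 ± 0.17 (SE) for Fdft1, -0.01 for Lss and -0.15 for Cyp51.

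The regulators and carriers did not move as a group, with 2 of 4 means higher. Srebf2, the gene of SREBP-2, had 2.10, 2.76 and 2.37 in TCEP livers and 2.69, 2.41 and 2.41 in corn oil livers. TCEP 1 was lowest and TCEP 2 highest, with the corn oil animals between them and a difference of -0.09 ± 0.19 (SE). Insig1, which retains the SREBP escort protein in the endoplasmic reticulum, had 5.20, 5.63 and 4.20 in TCEP livers and 5.28, 5.06 and 5.79 in corn oil livers. TCEP 3 stood well below the other animals and corn oil 3 highest, and the difference was -0.37 ± 0.39 (SE). Its 3 other probes gave -0.48 to -0.42.

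Stard4, a soluble carrier of cholesterol between membranes, had the smallest unadjusted p of the 43 members. It had 2.84, 2.74 and 3.25 in TCEP livers and 2.36, 2.44 and 2.39 in corn oil livers. All 3 TCEP animals lay above all 3 corn oil animals, and the corn oil animals were within 1.06-fold of each other. The TCEP mean was 1.46-fold higher (log2 difference 0.55 ± 0.15, SE; limma, unadjusted p = 0.00978, adjusted p = 0.477), and its second probe gave 0.41. On that second, dimmer probe the groups overlapped, since TCEP 1 (-1.05) lay below corn oil 1 (-0.85), at a difference of 0.41 ± 0.22 (SE). The unadjusted p of the gene in limma stayed under 0.05 in all 14 alternative settings, at 0.00542 to 0.0307, with differences of 0.40 to 0.65. Rdh11, a retinol dehydrogenase gene known as an SREBP target, differed by 0.06 and varied little between animals.

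**Figure D2:**
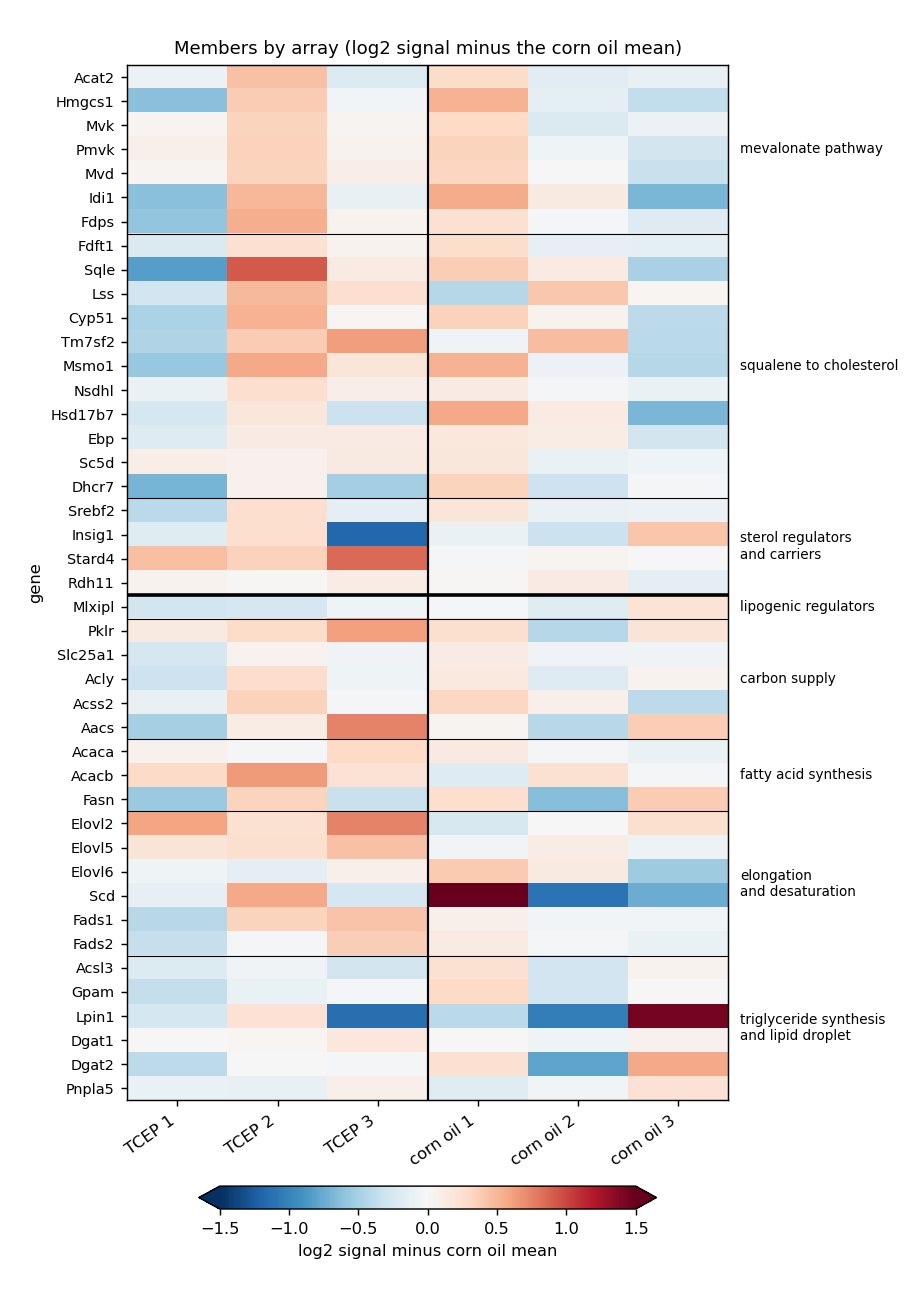
Scaled log2 signal of each member on each array minus its corn oil mean (colour, log2 units), with members in rows by role, a thick line between the arms, and the 3 TCEP arrays left of the 3 corn oil arrays. Most sterol rows run blue, red and pale across the TCEP arrays and red to blue across the corn oil arrays, Stard4 is red in all TCEP arrays, and Scd and Lpin1 each stand out in 1 corn oil array; colours stop at 1.5.

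In the fatty acid arm the carbon supply genes came first in the route. Pklr, the liver pyruvate kinase, had 2.74, 2.89 and 3.22 in TCEP livers and 2.84, 2.18 and 2.79 in corn oil livers. Corn oil 2 was the low animal, TCEP 1 lay below corn oil 1 and corn oil 3, and the difference was 0.34 ± 0.22 (SE). The second, dimmer Pklr probe gave 0.53 ± 0.17 (SE), and on it every TCEP animal lay above every corn oil animal. The citrate carrier Slc25a1, ATP citrate lyase Acly, acetyl-CoA synthetase Acss2 and acetoacetyl-CoA synthetase Aacs, which feed acetyl or acetoacetyl units to both arms, differed by -0.09, -0.04, 0.07 and 0.12.

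The synthesis of palmitate showed no common direction. Fasn, the fatty acid synthase, had 0.52, 1.41 and 0.74 in TCEP livers and 1.34, 0.43 and 1.47 in corn oil livers. TCEP 2 stood with corn oil 1 and corn oil 3, and TCEP 1 and TCEP 3 with corn oil 2, so that the groups overlapped fully at a difference of -0.19 ± 0.35 (SE). Acacb, the acetyl-CoA carboxylase of the mitochondrial surface, had -3.50, -3.14 and -3.57 in TCEP livers and -3.98, -3.56 and -3.82 in corn oil livers. The only overlap was TCEP 3 with corn oil 2, and the difference was 0.38 ± 0.17 (SE, unadjusted p = 0.059 in limma), or 0.15 with normexp background correction. Acaca, the cytosolic carboxylase, differed by 0.12.

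Elongases of polyunsaturated fatty acids held the other unadjusted differences. Elovl2, which lengthens the longer of these chains, had 4.24, 3.87 and 4.39 in TCEP livers and 3.40, 3.65 and 3.89 in corn oil livers. The groups overlapped only where TCEP 2 lay just under corn oil 3, and the TCEP mean was 1.44-fold higher (log2 difference 0.52 ± 0.18, SE; limma, unadjusted p = 0.029, adjusted p = 0.523). Its 2 other probes gave 0.32 and 0.47. Elovl5, which acts on shorter polyunsaturated chains, had 0.14, 0.19 and 0.40 in TCEP livers and -0.09, 0.07 and -0.13 in corn oil livers. The groups did not overlap, and the TCEP mean was 1.22-fold higher (log2 difference 0.29 ± 0.11, SE; limma, unadjusted p = 0.0384, adjusted p = 0.531). Neither held in all settings, since the unadjusted p was not under 0.05 in 4 of 14 alternatives for Elovl2 and in 6 of 14 for Elovl5. Dropping the filter on dim probes or adding the replicate block ended the one for Elovl5. Leaving out TCEP 3 or corn oil 1 ended both, leaving out TCEP 1 or corn oil 2 ended that of Elovl2, and leaving out TCEP 2 or corn oil 3 ended that of Elovl5, with unadjusted p-values of up to 0.0935 and 0.116 over all alternatives. The desaturases of polyunsaturated fatty acids, Fads1 and Fads2, differed by 0.11 and 0.00, and Elovl6, which extends palmitate, by -0.04.

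Scd, the desaturase that makes oleate, varied more between animals than any other member. It had 2.00, 2.68 and 1.87 in TCEP livers and 3.97, 1.01 and 1.37 in corn oil livers. Corn oil 1 was far above and corn oil 2 and corn oil 3 below every TCEP animal, a 7.74-fold range within corn oil, and the standard error of the difference exceeded its size (0.07 ± 0.78, SE).

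Triglyceride synthesis and lipid droplet genes had a lower TCEP mean in 5 of 6, with a median difference of -0.15 and none at an unadjusted p under 0.05. Gpam, the first acyltransferase of glycerolipid synthesis, had -1.14, -0.88 and -0.81 in TCEP livers and -0.48, -1.07 and -0.79 in corn oil livers. The groups overlapped, at a difference of -0.16 ± 0.18 (SE). Lpin1, the phosphatase that makes diacylglycerol, had -2.27, -1.79 and -3.14 in TCEP livers and -2.41, -3.04 and -0.57 in corn oil livers. Corn oil 3 alone was high, and the remaining 5 animals of both groups mixed, at a difference of -0.39 ± 0.68 (SE). The acyltransferases of the last step, Dgat1 and Dgat2, differed by 0.06 and -0.13, the acyl-CoA synthetase Acsl3 by -0.18 and the lipase Pnpla5 by -0.04. Mlxipl, the gene of ChREBP, had 1.06, 1.08 and 1.27 in TCEP livers and 1.31, 1.16 and 1.54 in corn oil livers. TCEP 3 lay between corn oil 2 and corn oil 1 and the rest of the TCEP animals below, at a difference of -0.20 ± 0.13 (SE).

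Animals of the same group differed widely in many sterol genes. The within-group SD, pooled over both groups, had a median of 0.33 log2 units over the 22 sterol members and 0.25 over the 21 fatty acid members, against 0.18 over all genes. It was above the all-gene median in 19 of 22 and 15 of 21 members, and above the 90th percentile of all genes in 7 and 5 members. The sterol members above it were Hmgcs1, Sqle, Idi1, Msmo1, Hsd17b7, Insig1 and Tm7sf2, and the fatty acid members were Fasn, Scd, Dgat2, Lpin1 and Aacs.

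**Figure D3:**
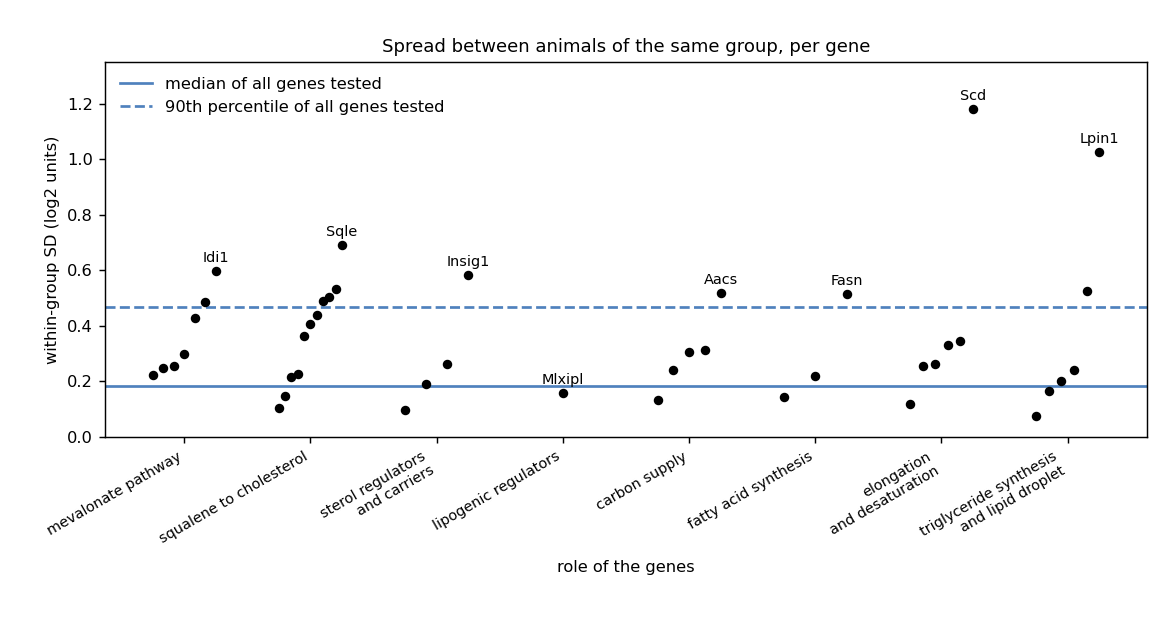
Within-group SD of each member (vertical axis, log2 units; 3 animals in each of 2 groups), by role, with the median (solid line) and 90th percentile (dashed line) of all genes tested. The member with the highest SD of each role is named, and Scd and Lpin1 stand highest.

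The sterol genes varied together from animal to animal. This pattern was noticed after the values were seen and is described without a test, and the genes were measured in the same animals and are not independent. All 18 sterol enzymes lay below their group mean in TCEP 1, 17 of 18 lay above it in TCEP 2, 16 of 18 above it in corn oil 1 and 17 of 18 below it in corn oil 3. Over all genes 58.1% lay below their group mean in TCEP 1, 54.3% above it in TCEP 2, 54.5% above it in corn oil 1 and 51.6% below it in corn oil 3. The median deviation of these 18 enzymes from the group mean was -0.28, 0.33 and 0.02 in TCEP 1, 2 and 3, and 0.31, -0.03 and -0.27 in corn oil 1, 2 and 3. No array's median over all genes deviated by more than 0.03.

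Of the 22 sterol members, 14 were lowest in TCEP 1 and highest in TCEP 2, against 17.5% of all genes. Likewise 12 were highest in corn oil 1 and lowest in corn oil 3, against 19.4% of all genes, and 10 had both orders, against 4.01% of all genes. In the fatty acid arm the counts were 5, 5 and 2 of 21. TCEP 2 exceeded TCEP 1 by 2.18-fold in Idi1, 2.19-fold in Fdps, 2.21-fold in Msmo1, 2.01-fold in Hmgcs1 and 1.99-fold in Cyp51. Corn oil 1 exceeded corn oil 3 by 2.36-fold in Idi1, 1.34-fold in Fdps, 1.94-fold in Msmo1, 1.86-fold in Hmgcs1 and 1.66-fold in Cyp51. Lss ran the other way there, with corn oil 1 at 0.723 times corn oil 3. Stard4 and Insig1 were among the members that had neither order. The counts of 14 and 12 were 12 to 15 and 11 to 13 in the 6 other processing settings tried.

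**Figure D4:**
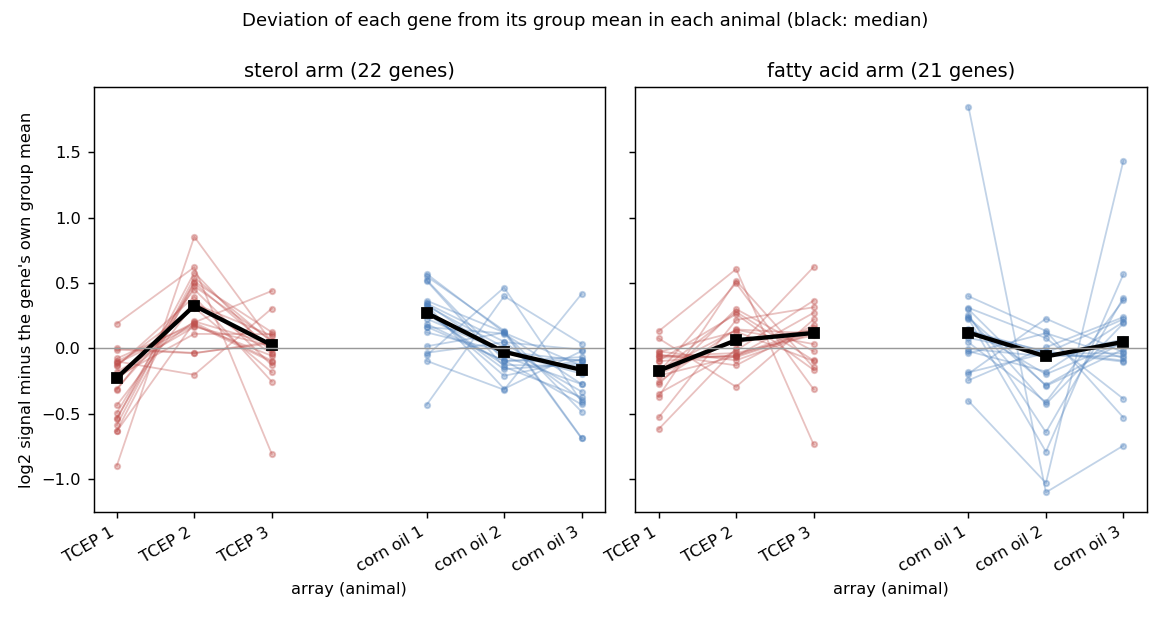
Scaled log2 signal of each member minus the mean of its own group, in each TCEP animal (red) and each corn oil animal (blue), with the arm's median in black. The sterol median is low in TCEP 1, high in TCEP 2 and corn oil 1 and low in corn oil 3, while the fatty acid medians stay within -0.17 to 0.12.

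The fatty acid arm followed the animals less closely. Its median deviation was -0.17, 0.06 and 0.12 in TCEP 1, 2 and 3 and 0.12, -0.06 and 0.05 in corn oil 1, 2 and 3. TCEP 1 was below the group mean in 19 of 21 members, as in the sterol arm, but corn oil 2 and not corn oil 3 was most often the lowest corn oil animal, in 12 of 21 members. The SD of an arm's median over animals of the same group was 0.24 for the sterol arm and 0.11 for the fatty acid arm. Set against the corn oil mean, the sterol median was -0.24, 0.34 and 0.05 in the TCEP animals and the fatty acid median -0.21, 0.12 and 0.07. The arms thus lay on the same side of 0 in each TCEP animal, as did the median over all genes (-0.01, 0.03 and 0.02). In corn oil 3 they lay on opposite sides, the sterol arm at -0.17 and the fatty acid arm at 0.05.

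Other measures also differed among these animals. Corn oil 1 and corn oil 3 shared slide 1 and a scan day, and all TCEP animals shared slide 3 and a scan day, so each of the contrasts TCEP 2 against TCEP 1 and corn oil 1 against corn oil 3 lay within its own slide. The 75th percentile of the processed signal was 557, 485 and 524 in TCEP 1, 2 and 3 and 471, 463 and 532 in corn oil 1, 2 and 3. The 9 hepatocyte markers had a median deviation of -0.13, 0.06 and 0.02 in the TCEP animals and 0.02, 0.01 and 0.02 in the corn oil animals. The 7 macrophage markers, all measured, had -0.15, -0.22 and 0.15 in TCEP and -0.91, 0.25 and 0.58 in corn oil, where their order was opposite to that of the sterol enzymes, and their summed signal ran from 63.6 to 74.6 times the 75th percentile in TCEP livers and from 46.1 to 105 times in corn oil livers. Of 5 cholangiocyte markers tested, 4 had higher TCEP means, with sums of 1.62 to 2.46 in TCEP and 1.22 to 1.55 in corn oil. The 3 adipocyte markers tested summed to 15.7 to 21.5 in TCEP and 22 to 25.7 in corn oil. The 2 pancreatic markers tested summed to 0.303 to 0.762 in TCEP and 0.209 to 0.456 in corn oil. Their median deviation was -0.27, 0.75 and 0.25 in TCEP 1, 2 and 3 and -0.14, 0.24 and -0.82 in corn oil 1, 2 and 3. This median was lowest in TCEP 1 and corn oil 3, as in the sterol enzymes, but highest in corn oil 2 and not corn oil 1. Both markers were lowest in TCEP 1, and 1 of the 2 was lowest in corn oil 3. The part of any of these in the members' values was not tested.

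Promoters are shown for Elovl5, whose groups did not overlap, and 3 of the 6 sterol enzymes with a within-group SD above the 90th percentile. They come from RefSeq (GRCr8), 250 bases before to 50 after the start, written 5′ to 3′ along the gene: Idi1 at chr17:66547475-66547774 on the minus strand, Msmo1 at chr16:29746863-29747162, Hmgcs1 at chr2:53382054-53382353 and Elovl5 at chr8:87670914-87671213 on the plus strand. Capitals mark the NF-Y box CCAAT, the Sp1 box GGGCGG and the E-box CACGTG on either strand.
Idi1: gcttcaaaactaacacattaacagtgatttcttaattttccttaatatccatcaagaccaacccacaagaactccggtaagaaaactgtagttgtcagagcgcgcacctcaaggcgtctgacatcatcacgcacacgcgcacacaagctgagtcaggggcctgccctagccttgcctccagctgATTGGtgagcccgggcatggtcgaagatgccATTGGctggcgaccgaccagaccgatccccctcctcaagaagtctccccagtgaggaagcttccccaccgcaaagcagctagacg
Msmo1: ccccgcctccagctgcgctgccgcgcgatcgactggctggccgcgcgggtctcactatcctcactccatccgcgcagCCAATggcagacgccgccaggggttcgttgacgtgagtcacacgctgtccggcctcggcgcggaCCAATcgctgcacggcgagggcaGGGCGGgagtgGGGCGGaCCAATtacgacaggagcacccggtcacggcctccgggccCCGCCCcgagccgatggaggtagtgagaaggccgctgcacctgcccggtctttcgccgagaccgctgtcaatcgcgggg
Hmgcs1: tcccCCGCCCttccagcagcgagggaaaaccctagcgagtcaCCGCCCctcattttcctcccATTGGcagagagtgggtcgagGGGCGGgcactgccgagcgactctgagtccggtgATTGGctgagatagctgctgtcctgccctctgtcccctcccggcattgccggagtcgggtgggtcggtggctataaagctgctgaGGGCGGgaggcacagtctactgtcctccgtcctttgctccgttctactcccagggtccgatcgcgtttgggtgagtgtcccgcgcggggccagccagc
Elovl5: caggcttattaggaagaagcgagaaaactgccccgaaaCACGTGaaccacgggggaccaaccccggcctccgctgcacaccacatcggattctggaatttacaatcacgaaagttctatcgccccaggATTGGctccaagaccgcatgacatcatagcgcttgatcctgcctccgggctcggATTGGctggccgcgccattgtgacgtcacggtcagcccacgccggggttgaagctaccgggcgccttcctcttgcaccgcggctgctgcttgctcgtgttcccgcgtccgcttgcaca

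A promoter was in the table for 36 members, 18 of each arm. CCAAT, read on both strands and counted once per promoter, was in 15 of 18 sterol promoters (83.3%) and 13 of 18 fatty acid promoters (72.2%), against 37.5% of 33469 rat promoters of the same length and 38.0% of those of coding genes. GGGCGG was in 15 of 18 (83.3%) and 10 of 18 (55.6%), against 33.1% of all promoters and 41.8% of coding ones. CACGTG was in 2 and 1 of 18, against 6.42%. The sterol regulatory element core TCACNCCAC was in 0 of 18 promoters of either arm, against 1.12%, which says only that these letters are not in these windows. The motifs were not required to be apart, and a match is a description of letters, not a bound site. NF-Y and Sp1 are known partners of SREBP factors. Any part of these motifs in the shared variation of the sterol enzymes between animals was not tested. In the sequences shown, Msmo1 holds 3 CCAAT and 3 GGGCGG, Hmgcs1 holds 2 and 4, Idi1 holds 2 CCAAT and no GGGCGG, and Elovl5 holds 2 CCAAT and 1 CACGTG.

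Other genes of the pathways were counted from a list chosen with earlier results known. Among 28 other genes of sterol synthesis, uptake, storage and export, 25 were tested, 15 had a higher TCEP mean, and the median difference was 0.08. The 1 of 25 at an unadjusted p under 0.05, against 9.2% of all genes, was Ggps1, which makes the geranylgeranyl group outside the route to sterol. It had -1.09, -1.19 and -1.15 in TCEP livers and -1.01, -0.75 and -0.88 in corn oil livers, without overlap, at a difference of -0.26 ± 0.10 (SE; limma, adjusted p = 0.533).

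Of 52 other genes of fatty acid and triglyceride metabolism, 45 were tested, 30 had a higher TCEP mean, and the median difference was 0.07. At an unadjusted p under 0.05 were 4 of 45, or 8.89% against 9.2% of all genes, a share near that background, and 10 of 45 did not overlap, against 17.4%. The 4 were Tkt, Me1, Tm6sf2 and Lpin3, all with higher TCEP means and no overlap, and none passed adjustment (limma, adjusted p from 0.438 to 0.537). Tkt, the transketolase of the pentose phosphate route, had 7.44, 7.61 and 7.64 in TCEP livers and 7.22, 6.43 and 6.99 in corn oil livers. Corn oil 2 was the low animal, and the TCEP mean was 1.60-fold higher. Me1, the malic enzyme that supplies NADPH, had 4.06, 4.16 and 4.55 in TCEP livers and 4.03, 3.22 and 3.74 in corn oil livers. TCEP 1 and corn oil 1 were nearly level, corn oil 2 was lowest, and the TCEP mean was 1.51-fold higher. Tm6sf2, needed to load lipid onto secreted lipoproteins, had 3.84, 3.91 and 4.25 in TCEP livers against 3.44, 3.37 and 3.47 in corn oil livers. Its corn oil animals agreed within 1.07-fold, and the TCEP mean was 1.49-fold higher. Lpin3, a relative of Lpin1, had 2.68, 2.73 and 2.67 in TCEP livers and 2.32 to 2.46 in corn oil livers, a TCEP mean 1.23-fold higher.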

How the data were processed

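Cy3-labelled liver RNA of 6 rats was hybridised to 1-colour arrays, per the labels' protocols. The authors used Agilent Feature Extraction 10.7.1.1, per the file headers (10.7 by the submitters' processing notes). The deposited scanner files hold a background-subtracted intensity per spot, and the deposited value table its ratio to the array's 75th percentile, as read from the values.

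Here log2 intensity minus that percentile was taken over 61657 non-control probes, with 64 outlier spots set to missing. A probe stayed in if each array of 1 group or both had it well above background, which 37043 did. Symbols came from RefSeq (GRCr8) through unversioned accessions, naming 10976 of 27642 genes. The groups were compared with limma 3.58.1 in R 4.3.3 (lmFit, eBayes, two-sided, adjusted p of 0.05), tested on simulated data. Replicates are animals, per the labels.

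Members, lists and the rule for naming genes were chosen with earlier results of these data known, so no list has a test. Per-array values are given for members at an unadjusted p under 0.05, the 3 highest and 3 lowest differences of each arm and set regulators and enzymes; Idi1 and Msmo1 were added after their values were seen. The labels give no pairing of animals, and the main fit used none. Same-numbered animals did not deviate together over all genes (correlations of -0.05, -0.17 and -0.02), which cannot show a pairing limited to few genes. Alternatives were leaving out each array, a block of replicate number, a random block of slide, eBayes with trend and robust, the mean of a gene's probes, keeping dim probes, the deposited table, quantile normalization and normexp (offset 50).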

Additional observations from a re-analysis of the deposited data

How the results depend on the processing

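In limma 0 genes were called in the main setting and in all 14 alternatives with a fit, among them the 1 with a replicate block, in which 3 members had an unadjusted p under 0.05 (Acacb in place of Elovl5) and the sterol median was 0.05; the smallest adjusted p ran from 0.06 (without corn oil 3) to 0.743 (without TCEP 3). Leaving out 1 array at a time, the members at an unadjusted p under 0.05 numbered 1 (without TCEP 3) to 4, the sterol members with a higher TCEP mean 6 to 19, and the fatty acid members 8 to 13. The sterol median ran from -0.11 to 0.18 and the fatty acid median from -0.06 to 0.10 in those fits, so neither median has a settled sign. With quantile normalization 11 of 22 sterol members had a higher TCEP mean. The median over all genes, 0.00 in the main setting, was -0.07 without the filter on dim probes and 0.02 with median centring, which was added after the values were seen. The sign of the difference changed in at least 1 alternative for 27 of the 43 members and was kept by 16, 6 of the sterol and 10 of the fatty acid arm. Acacb and Dgat1 alone moved by over 1 within-group SD, to 0.15 and 0.14 with normexp. Of 26 members with several probes kept, those of 6 differed in direction (Sqle, Fdps, Lss, Cyp51, Acat2 and Fads2). The 14 and 12 sterol members that shared the order of animals numbered 13 and 13 with quantile normalization and 13 and 11 with median centring. With 3 animals a group, the interval of 7 members did not exclude a 2-fold change, and that of Scd ran from -1.82 to 1.95 log2 units.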

Other observations

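The following genes were chosen after their values were seen. Corn oil 3, lowest in most sterol enzymes, was the highest of the 6 animals for Thrsp, Insig1 and Lpin1, while Scd was highest in corn oil 1. Thrsp, a lipogenic nuclear protein, had scaled log2 signals of 1.41, 2.44 and 1.12 in TCEP livers and 2.29, 1.93 and 3.38 in corn oil livers. Cd36, a fatty acid uptake protein, had 2.78, 2.29 and 2.29 in TCEP livers and 3.98, 3.87 and 1.91 in corn oil livers, lowest of all in corn oil 3.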
